A study of Homo sapiens with 6 samples.

Results

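The regulators described here are 10 transcription factors and cofactors that hold a B cell in the germinal centre state or move it towards the antibody-secreting plasma cell. They are BCL6, BACH2, PAX5, EBF1, SPIB, POU2AF1, MEF2C, PRDM1, XBP1 and ELL2, 10 of the 19775 genes measured. Members were found by symbol: every probe set whose platform annotation names exactly 1 gene, and that gene a member, was taken, which gave 27 probe sets. No measured value entered that choice. RNA came from BL-2, a human line established from a Burkitt lymphoma. The LPS group was exposed for 6 h to lipopolysaccharide, the endotoxin of Gram-negative bacteria, with no dose stated in the labels, and the control group had no treatment. Each group had 3 samples, and each sample had its own Affymetrix array. The labels do not name separate cultures, so the spread between samples may be technical.

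In a germinal centre, B cells divide and mutate their antibody genes. PAX5 and EBF1 keep B cell identity, and BCL6 and BACH2 repress PRDM1, the gene for Blimp-1. Once Blimp-1 is made, it represses BCL6 and PAX5 in turn, XBP1 expands the secretory apparatus, and ELL2 favours the secreted form of the immunoglobulin heavy chain. LPS drives mouse B cells along this path. Burkitt lymphoma cells keep a germinal centre programme.

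All values are the deposited log2 array values, where 1 unit is a doubling. Each probe set has its own scale, so levels are compared between arrays and not between genes. The array medians lay between 6.42 and 6.47 and the lowest value on any array was 5.46, so probe sets near the medians have little room to show a decrease. Differences are LPS minus control from a limma fit of all 54613 probe sets, and a change was called at a Benjamini-Hochberg adjusted p under 0.05. The arrays also fall into 2 sets by the level of added hybridisation controls. Set A held LPS 1, LPS 2 and control 1, and set B held LPS 3, control 2 and control 3. The 3' to 5' difference of ACTB, a measure of RNA integrity, ran from 0.37 to 0.41 on the arrays of set A and from 0.44 to 0.48 on those of set B. That of GAPDH did not part the sets, at 0.13 to 0.15 in A and 0.14 to 0.16 in B. Results are therefore also given within each set and from a second fit with array set as a block. Of the measured markers fixed for B cells, which include the regulator PAX5, 5 of 5 had means above the median probe set. The count was 1 of 8 for monocytes and 1 of 8 for T and NK cells. For fibroblasts and epithelium it was 3 of 7, and for erythroid cells and platelets 2 of 4. None of the markers of these other cell types passed the test.

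After LPS, ELL2 rose and no other regulator passed the test. Of the 27 probe sets 2 were called higher, both of ELL2, where 0.130% of all probe sets were called higher. None was called lower by limma, where 0.134% of all probe sets were. At an unadjusted p under 0.05, 11 member probe sets of 5 genes lay lower, namely BCL6, BACH2, EBF1, POU2AF1 and MEF2C, against 3.53% of all probe sets, and 3 lay higher, all of ELL2, against 4.55%. With array set as a block, 8 probe sets of those same 5 genes were called lower, against 0.716% of all, and the same 2 of ELL2 higher, against 0.628%. Under that block the number of lower calls was 3 without control 3 or LPS 2, 6 without LPS 1 and 8 without control 2. It was 0 without control 1 or LPS 3, but set A then lacks a control and set B an LPS array, respectively. The LPS term of those fits rests on the other set alone, so these counts are not comparable with the rest. A change in RNA per cell cannot be told apart from a change in the share of cells that express a gene. The median difference over the 27 was -0.07, and over all tested probe sets 0.0029. Of the 27 probe sets 21 had means above the median probe set, and several read the same gene. The shares of all probe sets given here are not matched for level or for repeated probe sets. The shares of all probe sets rest on 144 calls, which were 10 without LPS 2, 14 without control 3, 44 without LPS 1, 46 without control 2, 120 without LPS 3 and 374 without control 1.

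The germinal centre and Burkitt markers, a list that holds BCL6 itself, lay lower together with these regulators. Of 5 measured markers all lay below 0, with a median of -0.32, and 1 was called lower, where 0.207% of all genes were. Of the 5 measured B cell markers, a list that holds the regulator PAX5, 4 also lay below 0. Their median was -0.18, and 0 were called. The marker above 0 was PAX5, at 0.31. The summed log2 level of the germinal centre and Burkitt markers ran from 49.69 to 50.53 on LPS arrays. On control arrays it ran from 51.58 to 51.90, and all 5 had means above the median probe set. MYBL1, a MYB family factor of germinal centre B cells, was read by its brightest probe set. It gave 8.05, 7.75 and 7.95 on LPS arrays, against 8.30, 8.57 and 8.54 on control arrays, and fell by 0.56 (adjusted p = 0.0288). Without control 1 it still passed (adjusted p = 0.00472), and without any other single array its adjusted p lay from 0.0569 (LPS 1) to 0.234 (LPS 2). The dimmer MYBL1 probe sets did not show this fall, at -0.03 (adjusted p = 0.959) and -0.05 (adjusted p = 0.910). Their groups overlap, and they passed neither this fit nor that with array set as a block. The latter probe set lies below the array medians, with little room to show a decrease. By their brightest probe sets MYBL1, named after its values were seen, CD38 and BCL6 were called lower with array set as a block. The part of these markers in the regulators' values was not tested.

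**Figure D1:**
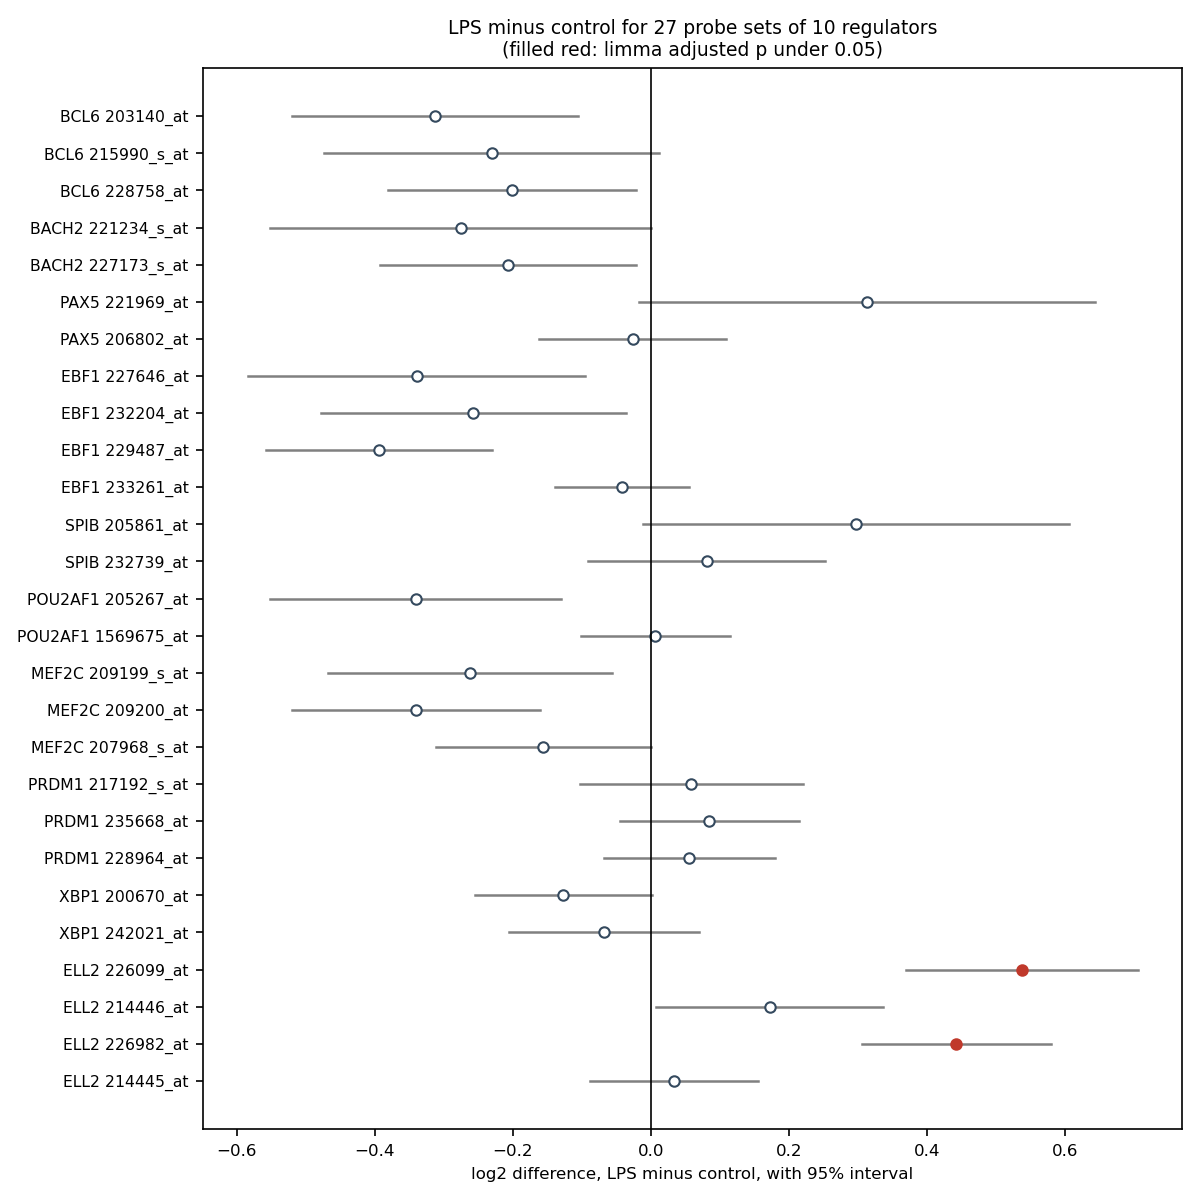
LPS minus control on the log2 scale (horizontal axis) for each of the 27 probe sets (rows, grouped by gene, brightest first), with 95% intervals from limma. The 2 called ELL2 probe sets lie at 0.54 and 0.44, while all probe sets of BCL6, BACH2, EBF1, MEF2C and XBP1 lie below 0.

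ELL2 encodes an elongation factor of RNA polymerase II that plasma cells use to process immunoglobulin heavy chain transcripts. Its brightest probe set, 226099_at, read 7.98, 8.06 and 7.81 on LPS arrays 1 to 3, against 7.42, 7.45 and 7.37 on control arrays 1 to 3. Every LPS value lay above every control value, as it did for 7.00% of all probe sets. The difference was 0.54, or 1.45-fold (SE 0.078, 95% interval 0.37 to 0.70, adjusted p = 0.00953, n = 3 per group). Probe set 226982_at gave 6.91, 6.92 and 7.00 on LPS arrays, against 6.42, 6.60 and 6.48 on control arrays, again without overlap. It rose by 0.44, or 1.36-fold (SE 0.064, adjusted p = 0.00949). The rise was present in both array sets, for 226099_at at 0.60 within A and 0.40 within B and for 226982_at at 0.49 and 0.46, where non-overlapping groups fix the shared sign.

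The other ELL2 probe sets did not pass. Probe set 214446_at gave 7.20, 7.12 and 6.92 on LPS arrays, against 6.85, 6.96 and 6.91 on control arrays. Here LPS 3 lay within the control range, and the difference was 0.17 (interval 0.0078 to 0.34, adjusted p = 0.591). Probe set 214445_at, at 6.11 to 6.26 in LPS and 6.09 to 6.21 in control cells, lies below the array medians and differed by 0.03 (interval -0.09 to 0.16). The sources used here do not say which transcripts each probe set reads.

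The ELL2 call depends on which array is left out. Without control 3 the adjusted p was 0.113 for 226099_at and 0.0983 for 226982_at. Without LPS 2 it was 0.1002 and 0.0790, and without LPS 1 it was 0.0622 and 0.0472. Both passed without any one of the other 3 arrays, and the size moved little, from 0.48 to 0.61 for 226099_at and from 0.40 to 0.49 for 226982_at.

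**Figure D2:**
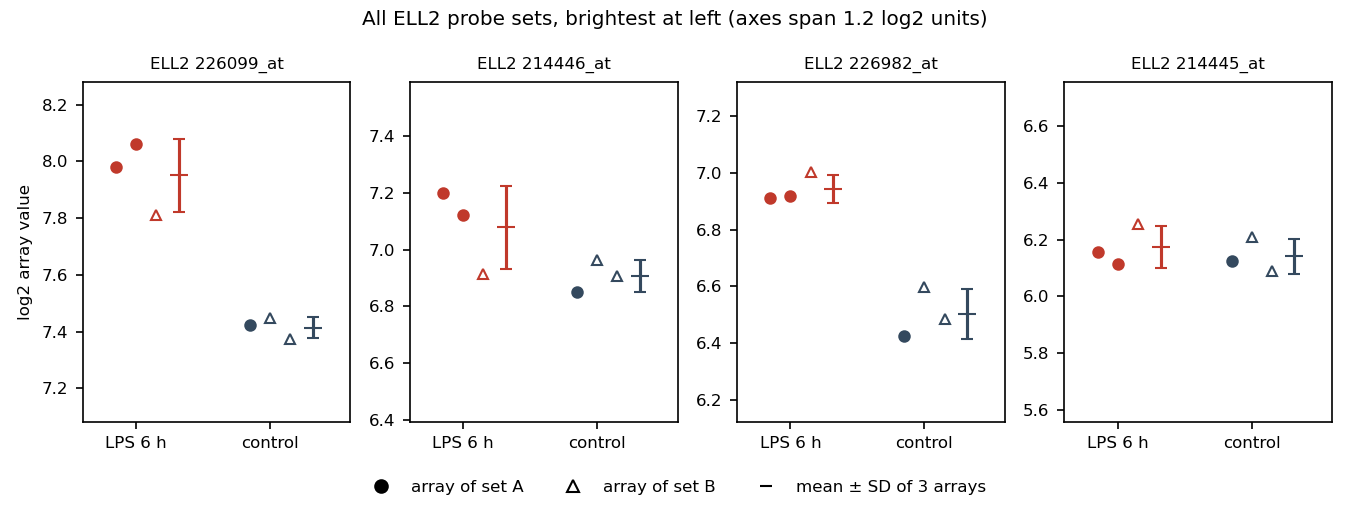
Log2 array values (vertical axis) of the 4 ELL2 probe sets in LPS and control cells, 1 point per array, filled circles for set A and open triangles for set B, with the mean and SD of 3 arrays beside them. For 226099_at and 226982_at the LPS arrays lie wholly above the control arrays, and the other panels show overlap.

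BCL6, a zinc finger repressor, is the defining regulator of the germinal centre. Its brightest probe set, 203140_at, read 11.05, 10.86 and 10.98 on LPS arrays, against 11.23, 11.21 and 11.38 on control arrays. All LPS values lay below all control values, as for 6.38% of all probe sets. The difference was -0.31 (SE 0.096, interval -0.52 to -0.11, adjusted p = 0.321), and the value was -0.28 in A alone and -0.32 in B alone. With array set as a block it was -0.30 and passed (adjusted p = 0.0467). The dimmer probe sets pointed the same way without passing in either fit. Probe set 215990_s_at gave 9.39, 9.13 and 9.04 on LPS arrays, against 9.62, 9.27 and 9.37 on control arrays, with overlap through LPS 1 (difference -0.23, interval -0.47 to 0.01, and -0.13 without control 1). Probe set 228758_at gave 7.06, 7.10 and 6.98, against 7.20, 7.10 and 7.44, and differed by -0.20, with LPS 2 and control 2 almost level, and by -0.10 without control 3.

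BACH2 encodes a repressor that pairs with small MAF proteins and delays plasma cell differentiation. Probe set 221234_s_at read 10.17, 10.10 and 9.68 on LPS arrays, against 10.40, 10.08 and 10.30 on control arrays. The groups overlap through control 2, and LPS 3 stands well below the rest. The difference was -0.28 (SE 0.13, adjusted p = 0.618), and -0.39 with array set as a block, where it passed (adjusted p = 0.0131). Without LPS 3 it was -0.12. Within the sets it was -0.26 in A and -0.52 in B, and the fitted difference of set B minus set A was -0.33 (adjusted p = 0.0171). The second probe set, 227173_s_at, gave 8.80, 8.65 and 8.65, against 8.90, 8.81 and 9.01, without overlap, and differed by -0.21 (interval -0.39 to -0.02, adjusted p = 0.555).

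EBF1 and PAX5 are partners in B lineage commitment. EBF1 had 4 probe sets, all below 0. Probe set 229487_at came closest to the threshold among the regulators not called, with 7.35, 7.16 and 7.36 on LPS arrays, against 7.62, 7.66 and 7.77 on control arrays. These groups do not overlap, and the difference was -0.39 (SE 0.077, interval -0.56 to -0.23, adjusted p = 0.0541), and the value was -0.37 in A alone and -0.35 in B alone. It passed without control 1 (adjusted p = 0.0285), and without any other single array its adjusted p lay from 0.0643 (LPS 3) to 0.343 (LPS 2). It also passed with array set as a block (-0.36, adjusted p = 0.00954). The brightest EBF1 probe set, 227646_at, gave 8.92, 8.61 and 8.60 on LPS arrays, against 9.20, 8.82 and 9.12 on control arrays, and differed by -0.34 (adjusted p = 0.387). Its groups overlap because LPS 1 lay above control 2. Probe set 232204_at differed by -0.26, also with overlap, and by -0.17 without LPS 3. Both passed with array set as a block, at -0.41 (adjusted p = 0.0229) and -0.33 (adjusted p = 0.0365). Probe set 233261_at, at 5.79 to 5.85 in LPS and 5.84 to 5.91 in control cells, lies near the floor and differed by -0.04.

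PAX5, the paired box factor that fixes B cell identity, read 10.27, 10.32 and 9.95 on LPS arrays by its brightest probe set 221969_at, against 10.18, 9.47 and 9.97 on control arrays. The values follow the array sets: the 3 highest are the arrays of set A. The difference of 0.31 (SE 0.15, interval -0.02 to 0.64, adjusted p = 0.648) came to 0.12 in A alone and 0.24 in B alone. With array set as a block it was 0.18 (adjusted p = 0.577), while the fitted difference of set B minus set A was -0.40 (adjusted p = 0.014). Without control 2 it was 0.11 and without control 1 0.47. Probe set 206802_at, at 6.59 to 6.77 in LPS and 6.65 to 6.74 in control cells, gave -0.03 (interval -0.16 to 0.11).

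SPIB, an ETS family factor related to PU.1, showed the same pattern. Probe set 205861_at read 11.24, 11.31 and 10.92 on LPS arrays, against 11.21, 10.65 and 10.73 on control arrays. Control 1, in set A, stood beside the LPS arrays of that set. The difference was 0.30 (interval -0.01 to 0.61, adjusted p = 0.641), and it was 0.06 in A alone and 0.24 in B alone. It was 0.15 with array set as a block (adjusted p = 0.485), without control 1 0.47 and without control 2 0.19. Its fitted difference of set B minus set A was -0.44 (adjusted p = 0.000325). Of all probe sets 4.54% differed between the array sets in this way, and of the members 3 did, one each of SPIB, PAX5 and BACH2. What separates the sets was not tested. Probe set 232739_at of SPIB differed by 0.08 (interval -0.09 to 0.25).

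**Figure D3:**
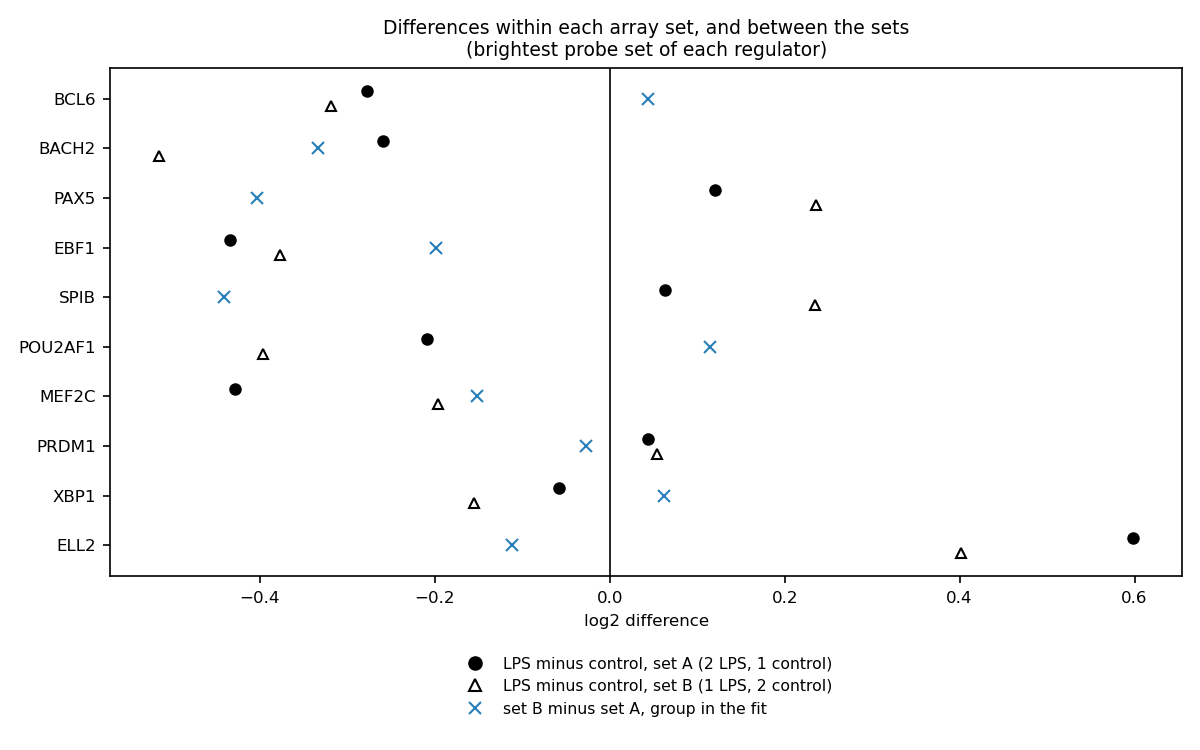
Differences on the log2 scale (horizontal axis) for the brightest probe set of each regulator (rows): LPS minus control for set A arrays (filled circles) and set B arrays (open triangles), and set B minus set A from the fit with both terms (crosses). SPIB, PAX5 and BACH2 have crosses at -0.44, -0.40 and -0.33, and the ELL2 symbols for LPS lie at 0.60 and 0.40.

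POU2AF1, the coactivator that joins octamer factors at immunoglobulin promoters, read 11.88, 11.71 and 11.82 on LPS arrays by 205267_at, against 12.00, 12.21 and 12.21 on control arrays. The groups do not overlap, and the nearest pair is LPS 1 and control 1. The difference was -0.34 (SE 0.098, interval -0.55 to -0.13, adjusted p = 0.269), and the value was -0.21 in A alone and -0.40 in B alone. It passed with array set as a block (-0.30, adjusted p = 0.0207). Its other probe set, 1569675_at, lies near the floor at 5.92 to 6.00 in LPS and 5.89 to 6.00 in control cells, and differed by 0.0065.

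MEF2C, a MADS box factor that in mice supports B cell proliferation after antigen receptor signalling, lay lower in LPS cells by all 3 of its probe sets, each without overlap. Probe set 209200_at gave 8.48, 8.28 and 8.44 on LPS arrays, against 8.81, 8.75 and 8.67 on control arrays. The difference was -0.34 (SE 0.084, interval -0.52 to -0.16, adjusted p = 0.151), and the value was -0.42 in A alone and -0.27 in B alone. The brightest, 209199_s_at, gave 9.30, 9.19 and 9.21, against 9.67, 9.45 and 9.37, a difference of -0.26 (adjusted p = 0.46), which was -0.17 without control 1. Both passed with array set as a block, at -0.35 (adjusted p = 0.025) and -0.31 (adjusted p = 0.0491). Probe set 207968_s_at differed by -0.16 and passed neither fit. The 3 probe sets read the same samples and are not independent evidence.

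**Figure D4:**
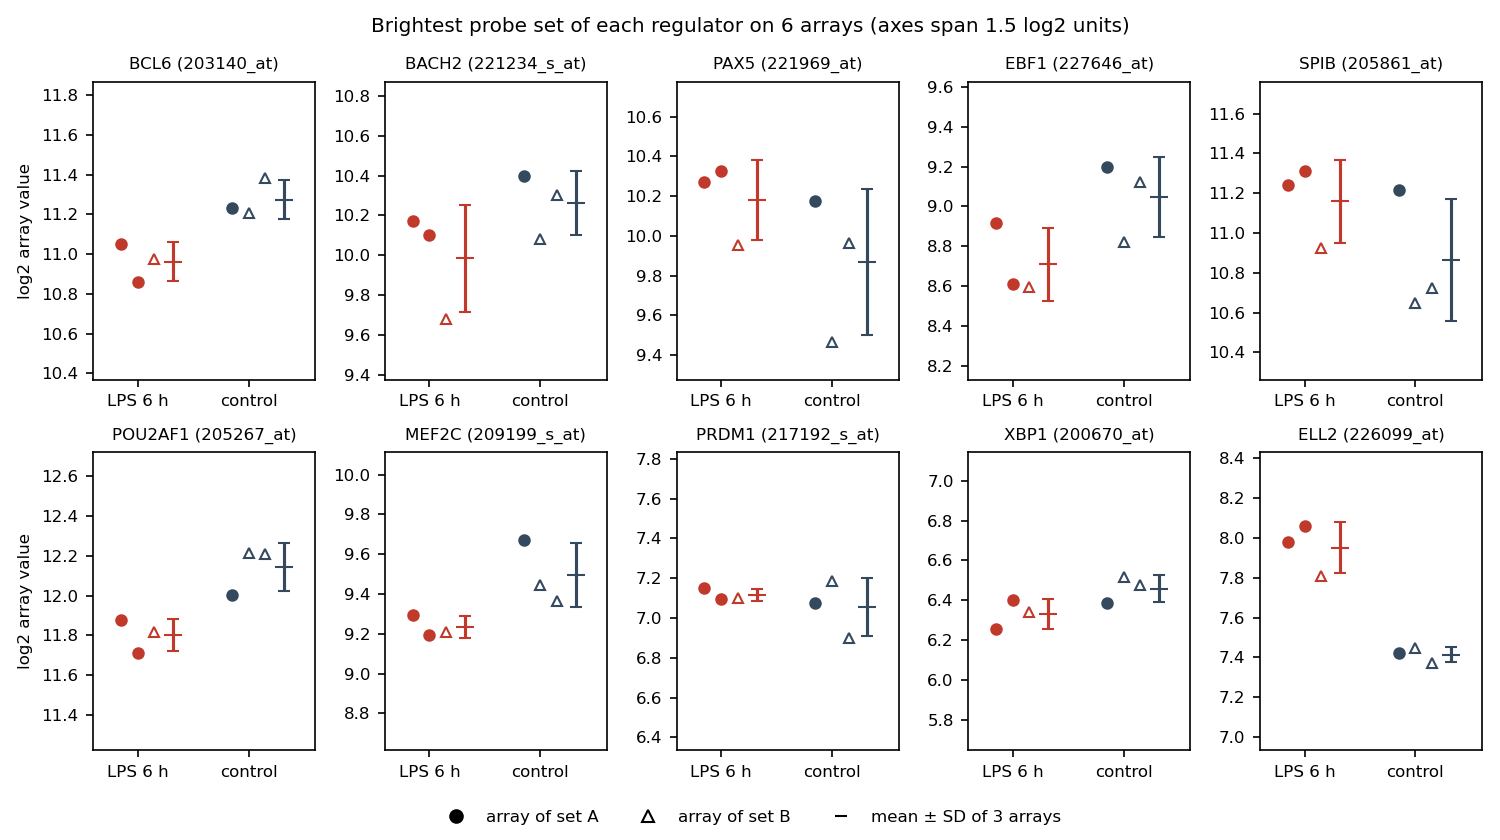
Log2 array values (vertical axis) of the brightest probe set of each of the 10 regulators in LPS and control cells, 1 point per array, filled circles for set A and open triangles for set B, with the mean and SD of 3 arrays beside them. Each panel spans 1.5 log2 units, so distances can be compared between panels; ELL2 shows the widest gap between the groups, and the PRDM1 values overlap.

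PRDM1, whose product Blimp-1 starts the plasma cell programme, did not pass by any of its 3 probe sets. Its brightest probe set, 217192_s_at, read 7.15, 7.09 and 7.10 on LPS arrays, against 7.08, 7.19 and 6.90 on control arrays. The LPS values all fall inside the control range. The difference was 0.06. Its 95% interval of -0.10 to 0.22 leaves out array differences as large as those of the called ELL2 probe sets. It does not leave out that of ELL2 probe set 214446_at, at 0.17. Probe sets 235668_at and 228964_at, at 6.32 to 6.67 in LPS and 6.26 to 6.56 in control cells, differed by 0.08 (interval -0.05 to 0.21) and 0.06 (interval -0.07 to 0.18). The PRDM1 probe sets lie near or above the array medians, where a change can be compressed.

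XBP1, whose messenger RNA is spliced by the stress sensor IRE1 to yield the active factor, also read near or below the array medians. Probe set 200670_at gave 6.25, 6.40 and 6.34 on LPS arrays, against 6.38, 6.52 and 6.47 on control arrays, with overlap between LPS 2 and control 1. The difference was -0.13 (interval -0.26 to 0.0019, adjusted p = 0.624). Probe set 242021_at differed by -0.07 (interval -0.21 to 0.07). The sources used here do not say whether either probe set separates spliced from unspliced XBP1.

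The promoters of the regulators were read for the binding motifs of the same factors. RefSeq promoter windows of human assembly GRCh38.p14 were matched by symbol for 8 of the 10 members, BCL6, BACH2, PAX5, EBF1, SPIB, MEF2C, PRDM1 and XBP1, with 17 windows in all, and the 250 bases before each start were searched on both strands. The motifs were CAGGTG for E proteins, ATGCAAAT for octamer factors, TTCNNNGAA for STAT and BCL6 type sites, GAGGAA for PU.1 and SPIB, TGAGTCA for AP-1 and BACH factors, a PRDM1 type site, and ACGTG for XBP1. Shown are BCL6 at the outermost of its 2 starts, 2 of the 7 MEF2C windows, as a gene whose probe sets all lay lower, and both windows of PRDM1, whose groups overlapped. Each reads 5′ to 3′ on the minus strand for BCL6 and MEF2C and on the plus strand for PRDM1, and capitals mark motif matches.
BCL6, chr3:187745469-187745718: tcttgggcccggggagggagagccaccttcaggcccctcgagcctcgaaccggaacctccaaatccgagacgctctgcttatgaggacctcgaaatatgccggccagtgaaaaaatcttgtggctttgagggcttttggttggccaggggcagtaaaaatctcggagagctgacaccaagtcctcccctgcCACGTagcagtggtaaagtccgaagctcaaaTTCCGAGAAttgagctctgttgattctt
MEF2C, chr5:88785512-88785761: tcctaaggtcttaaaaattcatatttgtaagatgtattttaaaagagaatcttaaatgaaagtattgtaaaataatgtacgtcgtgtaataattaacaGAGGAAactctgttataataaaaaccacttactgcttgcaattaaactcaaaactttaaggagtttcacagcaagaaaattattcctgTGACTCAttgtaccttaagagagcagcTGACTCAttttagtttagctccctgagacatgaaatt
MEF2C, chr5:88824345-88824594: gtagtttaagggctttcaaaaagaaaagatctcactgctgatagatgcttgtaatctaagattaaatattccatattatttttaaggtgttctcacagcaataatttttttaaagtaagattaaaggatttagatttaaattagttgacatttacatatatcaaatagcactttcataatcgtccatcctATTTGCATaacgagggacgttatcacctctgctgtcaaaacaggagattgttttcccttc
PRDM1, chr6:106086086-106086335: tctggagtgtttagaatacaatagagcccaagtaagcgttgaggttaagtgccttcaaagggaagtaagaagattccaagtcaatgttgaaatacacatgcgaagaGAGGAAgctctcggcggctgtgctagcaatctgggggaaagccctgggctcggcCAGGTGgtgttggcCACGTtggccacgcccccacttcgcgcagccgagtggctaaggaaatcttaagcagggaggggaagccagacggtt
PRDM1, chr6:106098691-106098940: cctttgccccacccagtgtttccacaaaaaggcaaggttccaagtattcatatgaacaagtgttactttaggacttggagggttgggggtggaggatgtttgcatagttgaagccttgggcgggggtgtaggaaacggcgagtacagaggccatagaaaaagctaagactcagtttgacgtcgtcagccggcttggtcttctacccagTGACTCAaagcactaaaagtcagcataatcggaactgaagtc
In the BCL6 window the capitals are CACGT, the reverse complement of ACGTG, and a match to TTCNNNGAA that ends 20 bases before the start. The first MEF2C window holds GAGGAA and TGACTCA, the reverse complement of the BACH core, at 2 places. The second holds the octamer on the opposite strand, as ATTTGCAT. These are the only MEF2C windows with the BACH core or the octamer, so they do not stand for its other windows. Of the MEF2C windows not shown, that at the outermost start holds only CAGGTG, another holds no match, and the rest hold only GAGGAA. The first PRDM1 window holds, in order, the PU.1 and SPIB core, the E protein site and the XBP1 core on the opposite strand, and the second holds the BACH core as TGACTCA. The BCL6 window not shown holds TGAGTCA. The windows of BACH2 and EBF1, whose probe sets also all lay lower, hold no match to any of the motifs, and neither does that of SPIB. None of the marked matches overlap.

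Of all 35116 windows, 17.5% held CAGGTG, 1.63% the octamer, 6.57% TTCNNNGAA, 23.6% GAGGAA, 4.20% TGAGTCA, 0.382% the PRDM1 type site and 18.5% ACGTG. Among the 17 windows of the regulators 2 held CAGGTG, 1 the octamer, 1 TTCNNNGAA, 6 GAGGAA, 3 TGAGTCA, 0 the PRDM1 type site and 4 ACGTG. MEF2C supplies 7 of the 17 windows, so these are not independent. A match is a string of letters and not a measured binding site.

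Genes that work with the regulators were read from 9 lists, each gene by its brightest probe set. Of the 105 genes measured 1 was called, which is lower in LPS cells, where 0.389% of all genes were called, and 0.207% called lower. With array set as a block 15 were called, 6 higher and 9 lower, where 2.02% of all genes were. The median difference of all genes was 0.0016. The dimmer probe sets of CR2, ID2, TBL1X, MTA3, IRF4, PDIA6, HSPA5, CCNT2 and MLLT3, which are named below, passed in neither fit.

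Among B cell identity genes under PAX5, EBF1 and POU2AF1, 0 of 18 measured passed, 11 lay below 0 and the list median was -0.06. CR2, the complement receptor CD21, averaged 6.46 ± 0.088 in LPS and 6.09 ± 0.13 in control cells (SD, n = 3 each), a difference of 0.37 (adjusted p = 0.0519). IGLL1, a surrogate light chain component, was at 9.70 ± 0.21 in LPS and 9.15 ± 0.082 in control cells, a difference of 0.54 (adjusted p = 0.0541). Both lay higher on every LPS array than on any control array. CR2 sits below the array medians in control cells. With array set as a block these were called higher, and CD79A, a signalling chain of the B cell receptor (-0.35), LEF1 (-0.35) and VPREB3 (-0.36) lower.

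Of 17 measured genes reported as BCL6 repression targets, 1 fell and 0 rose, with a list median of -0.02. TRIM22, an interferon-induced ubiquitin ligase, was at 9.36, 9.12 and 9.27 on LPS arrays, against 9.95, 9.74 and 9.77 on control arrays, and fell by 0.57 (SE 0.096, adjusted p = 0.0245). Without control 1 it still passed (adjusted p = 0.0265), and without any other single array its adjusted p lay from 0.0502 (LPS 3) to 0.201 (LPS 2). ID2, an inhibitor of E proteins, differed by -0.43 (adjusted p = 0.158), and by -0.49 with array set as a block (adjusted p = 0.00155). Cell cycle inhibitor CDKN1A was at 0.21 and the B cell costimulator CD80 at 0.10, neither passing.

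The corepressors of BCL6 and MEF2 factors had 0 of 11 called and a median of 0.04. TBL1X, a subunit of the NCoR and SMRT complexes, differed by -0.31 (adjusted p = 0.17), and by -0.30 with array set as a block, where it passed (adjusted p = 0.0490). MTA3, a subunit of the NuRD complex that works with BCL6, differed by -0.24 (adjusted p = 0.422). Among small MAF partners and relatives of BACH2 0 of 5 were called, with MAFG at 0.19 and the heme oxygenase gene HMOX1, a BACH target, at -0.06. The MEF2 relatives MEF2A and MEF2D both differed by 0.02, with intervals of -0.15 to 0.20 and -0.17 to 0.22.

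In the list of octamer factors and ETS-IRF partners 0 of 11 passed, with a median of 0.03. IRF4, which represses BCL6 and activates PRDM1 in plasma cell differentiation, read 10.98, 10.84 and 10.64 on LPS arrays, against 10.44, 9.99 and 10.30 on control arrays. IRF8, a germinal centre factor, read 10.64, 10.49 and 10.73, against 10.92, 11.11 and 11.11. Neither pair of groups overlaps, and the signs are opposite, at 0.58 (adjusted p = 0.0852) for IRF4 and -0.43 (adjusted p = 0.13) for IRF8. Both passed with array set as a block, at 0.48 (adjusted p = 0.00189) and -0.37 (adjusted p = 0.00692).

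Of 13 measured plasma cell genes 0 passed and 8 lay below 0, with a median of -0.02. CD38, which germinal centre and plasma cells share, differed by -0.33 (adjusted p = 0.24), and by -0.38 with array set as a block (adjusted p = 0.00954). The kinase gene PIM2 differed by -0.21 (adjusted p = 0.577). Genes more particular to plasma cells did not pass, with SDC1 at 0.07, MZB1 at 0.01, JCHAIN at -0.05 and TNFRSF17, the receptor BCMA, at 0.15. Of the 5 plasma cell markers, which are these and SLAMF7, 3 had means above the median probe set. The lowest mean was 6.41, a level where a change can be compressed.

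The XBP1 pathway, made of the sensor ERN1 and secretory target genes, had 0 of 18 measured genes called by limma, while 16 lay above 0 and the median was 0.17. Leading were PDIA6, a protein disulfide isomerase, and HSPA5, the chaperone BiP. PDIA6 read 11.38, 11.24 and 11.48 on LPS arrays, against 10.97, 10.93 and 11.00 on control arrays, a difference of 0.40 (adjusted p = 0.133). HSPA5 read 12.00, 11.97 and 12.07, against 11.78, 11.50 and 11.57, also a difference of 0.40 (adjusted p = 0.158). Neither shows overlap, and both were called with array set as a block, at 0.43 (adjusted p = 0.00156) and 0.37 (adjusted p = 0.00638). In A alone and B alone PDIA6 differed by 0.34 and 0.52, and HSPA5 by 0.21 and 0.54. ERN1 was at 0.24 and DNAJB9, a target of spliced XBP1, at -0.01.

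ELL2's relatives and the super elongation complex had 0 of 11 called, with a median of 0.07. ELL differed by 0.05, ELL3 by -0.20 and the ELL binding proteins EAF1 and EAF2 by 0.17 and 0.04. CCNT2, a cyclin of the elongation kinase P-TEFb, was at 0.35 (adjusted p = 0.142). MLLT3, a subunit of the complex, was at -0.33 (adjusted p = 0.151). Both passed with array set as a block, at 0.29 (adjusted p = 0.0462) and -0.35 (adjusted p = 0.0186).

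**Figure D5:**
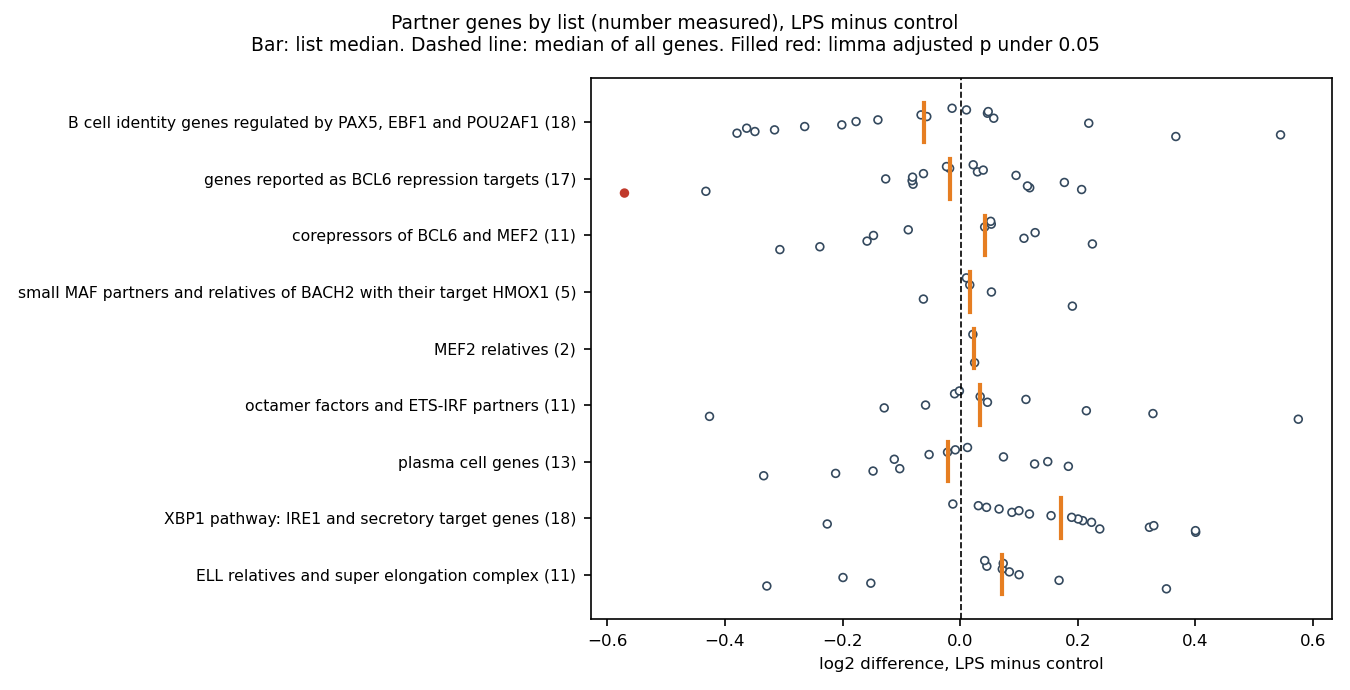
LPS minus control on the log2 scale (horizontal axis) for each measured gene of the 9 lists (rows, with the number measured), list medians as bars and the median of all genes as a dashed line. TRIM22, at -0.57, is the only gene drawn as called, and 16 of 18 genes of the XBP1 pathway lie right of 0.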

How the data were processed

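RNA was purified on columns and labelled with biotin by in vitro transcription, per the labels' protocols. The deposited values, taken as log2 because they lie between 5.46 and 14.81, were used as the authors gave them; the sources used here do not say how background and normalisation were handled. With 3 arrays a group the precision is limited, and the median SE of a difference was 0.063.

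From the 54675 probe sets 62 Affymetrix controls were left out. Names came from the platform annotation, with 41037 of 41091 single-symbol probe sets matched to RefSeq by gene identifier. A gene is represented by its single-symbol probe set with the highest mean. The model in R 4.3.3 with limma 3.58.1 had group as its only term (lmFit, eBayes with an intensity trend, two-sided, Benjamini-Hochberg over 54613 probe sets), and the steps were tested on simulated data. The array sets were parted at the widest gap, 0.223, in the mean log2 level of 18 hybridisation control probe sets, with the next gap at 0.0808.

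Sample numbers were not used as pairs, because the sources used here name no pairing. The deviations of same-numbered arrays correlated at 0.44, -0.04 and 0.23. The arrays numbered 1 share an array set, as do those numbered 3, but those numbered 2 do not. These correlations therefore cannot tell pairing from array set. Named genes are all members and, per list, those called and otherwise the 2 with the smallest unadjusted p; others were chosen after their values were seen. The members, lists and alternatives were chosen with earlier results of these data known.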

Additional observations from a re-analysis of the deposited data

How the results depend on the processing

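Of 381 values of single member probe sets under other settings 355 kept their sign and their side of the threshold, 15 passed newly, 5 no longer passed and 6 changed sign. The 6 sign changes came from leaving out 1 array, in probe sets close to 0: the ranges were -0.022 to 0.036 for POU2AF1 1569675_at, -0.018 to 0.12 for PRDM1 217192_s_at, -0.075 to 0.010 for PAX5 206802_at, -0.11 to 0.0036 for XBP1 242021_at and -0.0070 to 0.068 for ELL2 214445_at. The 5 losses were of the called ELL2 probe sets. All 10 means over a regulator's probe sets kept the sign and the side of the threshold of its brightest probe set.

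The 2 called member probe sets became 4 with the replicate block (2 lower, of EBF1 and MEF2C), 10 with array set as a block, 5 with quantile normalisation (3 lower, of BCL6, EBF1 and POU2AF1) and 1 among probe sets above the 75th percentile, which ELL2 226982_at does not reach. Leaving out 1 array gave 0 to 3, with 0 without control 3 or LPS 2. With array set as a block it gave 1 without control 1, 2 without LPS 3, 5 without control 3 or LPS 2, 8 without LPS 1 and 10 without control 2, alternatives added after the data were seen. Without control 1 or LPS 3 the LPS term of the blocked fit rests on a single array set. Over all probe sets the 144 calls were 498 with the replicate block, 734 with array set as a block, 292 with quantile normalisation, 309 with array weights, 82 without _x_at and _s_at probe sets and 265 at a threshold of 0.1, and 10 to 374 with 1 array left out.

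The 1 called partner gene became 11 with the replicate block, 15 with array set as a block, 11 with quantile normalisation, 3 with median centring, 5 without the variance trend, 7 with array weights, 4 at a threshold of 0.1, 2 by the mean over probe sets, and 0 to 7 with 1 array left out. Without _x_at and _s_at probe sets the count was again 1, but of another gene, called higher. TRIM22, read by an _s_at probe set, is left out there. The cause of the differences between settings was not tested.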
